A study of Mus musculus with 8 samples.

Results

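The 10 genes described here encode thrombospondins, proteins of the SPARC family, osteopontin and periostin, and they were compared between the limbus and the cornea of the mouse. They were taken by symbol, as the 10 rows of the deposited table named Thbs1, Thbs2, Thbs3, Thbs4, Comp, Sparc, Sparcl1, Spp1, Postn and Smoc2, out of 23420 rows that name a gene. The tissue came from wild-type C57BL/6J mice that were 8 weeks old, and the labels give no treatment. Limbal rims and corneal buttons were dissected from 16 eyes, pooled by tissue, and sequenced as total RNA to learn the composition of the niche in which the stem cells of the corneal epithelium reside. The labels list 8 samples, 4 per tissue, but the table holds 1 library per tissue. There is thus no spread between replicates and no test between the tissues, and intervals given below cover counting error only. The sample titles end in the style of lane numbers, so whether the 4 per tissue are separate replicates is not known.

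Matricellular proteins are secreted into the extracellular matrix, where they act on cells and on matrix assembly more than they bear load. They bind integrins, CD36, CD47, CD44, collagens and growth factors, and many of them are known for their part in wound repair and fibrosis. Thrombospondins 1 and 2 form trimers with type 1 repeats that bind CD36, whereas thrombospondins 3 and 4 and cartilage oligomeric matrix protein, the product of Comp, form pentamers without those repeats. In the eye, the corneal stroma is avascular and transparent, and the limbus is the vascular border where it meets the sclera and the conjunctiva.

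Named genes took 26104317 reads in the corneal library and 21182025 in the limbal one. Reads were divided by a size factor per library, which gives normalized reads, and a ratio is always that of limbus over cornea. Of 15572 genes with more than 3 reads in at least 1 library, 3233 (20.8%) were at least 2-fold higher in the limbus and 1377 (8.84%) at least 2-fold higher in the cornea. After scaling to total reads, which adds 0.21 to every log2 ratio and moves the median of all genes from 0.01 to 0.22, these numbers were 3743 and 884. Epithelial genes went with the tissue labels. Corneal epithelial markers summed to 2500640 corneal and 1020920 limbal normalized reads, and limbal and conjunctival epithelial markers to 75256 and 607992. Because the tissues are mixtures, fewer cells of a type and less RNA per cell cannot be told apart in any of the ratios below.

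Of the 10 genes, 8 were at least 2-fold higher in the limbus, where 20.8% of all genes tested were, and 0 were at least 2-fold higher in the cornea, where 8.84% were. Spp1, Comp and Postn had the largest ratios, at 58.6-fold, 39.3-fold and 13.4-fold. Thbs3, Thbs1, Thbs2, Sparc and Sparcl1 followed between 4.09-fold and 2.15-fold. Smoc2 was 1.69-fold higher in the limbus and Thbs4 lay at nearly the same level in both libraries. Over the 10 genes the median log2 ratio came to 1.75, against 0.01 over all genes tested, whose middle quartiles ran from −0.48 to 0.72. Among 11158 genes with a mean level inside the range of these 10, 1126 (10.1%) were at least 2-fold higher in the limbus, with a median of −0.12. The intervals of 9 of the 10 lay wholly above equality, a property shared by 34.0% of all genes tested, and 36.5% of all genes lay wholly below it.

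**Figure D1:**
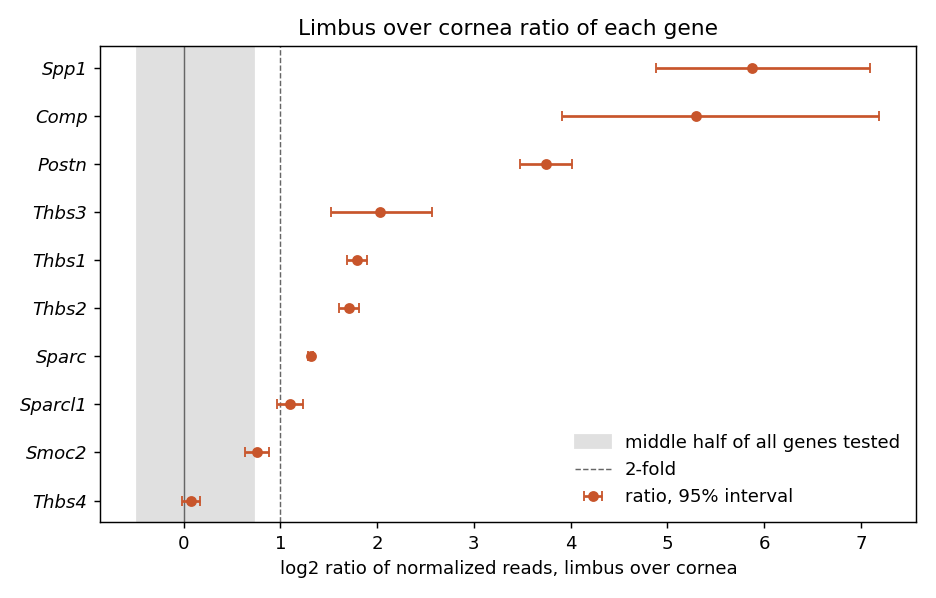
Log2 ratio of normalized reads, limbus over cornea, for each of the 10 genes, with its exact 95% interval from the reads of 1 library per tissue. The grey band holds the middle quartiles of all 15572 genes tested and the dashed line marks 2-fold. Thbs4 and the line of equality overlap, Smoc2 lies short of the dashed line, and the other 8 lie beyond it, with the widest intervals for Spp1 and Comp.

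Promoters are shown for the genes with the first and the third ratio in that order, Spp1 and Postn, and for a pair of thrombospondins with unlike ratios, Thbs2 and Thbs4. The RefSeq promoter table for GRCm38.p6 held 8 windows for 6 of the 10 genes, namely Postn, Sparc, Spp1, Thbs2, Thbs3 and Thbs4, each reaching from 250 bases before to 50 bases after a transcription start. Postn and Spp1 have 2 windows each, and those printed, picked with the sequences in view, are the ones whose start lies nearest to the annotated start of the gene. Windows were searched on both strands for letters that were chosen with the sequences in view. The TATA box was read as TATAAA, which places the start of transcription in many genes. The GC box, which binds Sp1, was read as GGGCGG in either direction. For sites of AP-1 factors the search used TGANTCA, where N is any base. For RUNX factors it used ACCACA, which is the core of their site. For TEAD factors it used CATTCC, the site known as MCAT. Matches to different motifs did not overlap in these windows. The 250 bases before the start are printed 5′ to 3′ on the strand of the gene, at chr5:104434861-104435110 (plus strand) for Spp1, chr3:54360857-54361106 (plus strand) for Postn, chr17:14694263-14694512 (minus strand) for Thbs2 and chr13:92794819-92795068 (minus strand) for Thbs4. Capitals mark matches to any of the searched letters on either strand.
Spp1: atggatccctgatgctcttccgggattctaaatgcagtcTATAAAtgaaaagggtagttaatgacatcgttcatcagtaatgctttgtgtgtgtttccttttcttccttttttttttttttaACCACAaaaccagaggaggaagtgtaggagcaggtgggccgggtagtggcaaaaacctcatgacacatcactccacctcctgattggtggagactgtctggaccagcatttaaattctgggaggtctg
Postn: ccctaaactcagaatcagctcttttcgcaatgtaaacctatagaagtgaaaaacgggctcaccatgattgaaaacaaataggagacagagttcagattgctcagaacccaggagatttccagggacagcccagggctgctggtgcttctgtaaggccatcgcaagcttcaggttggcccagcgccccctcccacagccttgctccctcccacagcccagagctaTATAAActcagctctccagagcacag
Thbs2: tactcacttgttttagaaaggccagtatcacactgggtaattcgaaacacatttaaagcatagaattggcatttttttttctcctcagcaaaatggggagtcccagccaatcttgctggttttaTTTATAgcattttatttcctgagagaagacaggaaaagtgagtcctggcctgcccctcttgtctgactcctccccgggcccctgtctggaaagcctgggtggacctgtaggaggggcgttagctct
Thbs4: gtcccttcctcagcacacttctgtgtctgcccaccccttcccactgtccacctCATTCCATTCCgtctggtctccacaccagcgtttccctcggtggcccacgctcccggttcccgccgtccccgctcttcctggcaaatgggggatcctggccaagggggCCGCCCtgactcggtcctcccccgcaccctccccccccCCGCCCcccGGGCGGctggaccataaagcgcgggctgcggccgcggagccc

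With positions counted from the transcription start, the Postn window printed held TATAAA from −26, where a TATA box is usually found. Those letters began at −211 in Spp1 and, on the opposite strand, at −126 in Thbs2, and 13.6% of 32851 promoters hold them somewhere in a window of this length. Thbs4 was the only one of the 4 printed with GGGCGG, in 3 copies at −89, −51 and −42, and 35.7% of all promoters hold at least 1. Its window was also the richest of these 4 in G and C, at 72.0% against 53.0% for Postn, 48.3% for Thbs2 and 45.3% for Spp1, with a median of 52.7% over all promoters. Thbs4 further held CATTCC in 2 overlapping copies (14.7% of all promoters hold these letters), Spp1 held ACCACA (16.8%), and TGANTCA (7.81%) was in none of the 8 windows. The other windows of Postn and Spp1 held no match and had 40.0% and 36.7% G and C. The remaining windows not printed held GGGCGG in Thbs3 and ACCACA in Sparc. A match is only a run of letters and was not tied to binding of any factor.

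Both trimeric thrombospondin genes were higher in the limbus, by 3.45-fold and 3.28-fold, and their levels lay close together in each library. Thbs1 encodes thrombospondin 1, an activator of latent TGF-β and an inhibitor of angiogenesis, and lies at chr2:118111876-118127133 on GRCm38 (plus strand, 6073 exon bases in all). It had 968 corneal and 3129 limbal reads. The limbal level was higher by a log2 ratio of 1.79 (95% interval 1.68 to 1.89), or 3.45-fold, above 86.8% of genes tested. Thbs2 encodes thrombospondin 2, also an inhibitor of angiogenesis and a protein that affects how collagen fibrils form, and lies at chr17:14665500-14694235 (minus strand, 7003 exon bases). It had 1016 corneal and 3117 limbal reads, a log2 ratio of 1.71 (1.61 to 1.82), or 3.28-fold. The log2 ratios of Thbs1 and Thbs2 differed by 0.08, with an interval of −0.07 to 0.22 that includes equality. Per kb of exon, Thbs2 stood at 0.910 of the level of Thbs1 in the cornea and 0.864 in the limbus, but at 1.04 and 0.988 with the longest transcript as the length, so their order in the cornea turns with it. The sum over both genes was 1984 corneal and 6246 limbal reads, a log2 ratio of 1.75 (1.68 to 1.82).

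The pentameric thrombospondins differed widely among themselves. Thbs4, known from tendon, muscle and nerve, lies at chr13:92751590-92794818 (minus strand, 3289 exon bases). It had 1773 corneal and 1747 limbal reads, a log2 ratio of 0.07 (−0.02 to 0.17), which is not distinguishable from equality by counting error. After scaling to total reads the log2 ratio was 0.28 and its interval no longer included equality. Comp, whose product binds collagens in cartilage and tendon, lies at chr8:70373558-70382066 (plus strand, 2967 exon bases). It had 4 corneal and 147 limbal reads, which gives a log2 ratio of 5.30 with a wide interval of 3.91 to 7.19, a fold of 15.0 to 146. Of all genes tested, 113 had a larger ratio than Comp with reads of 3 or fewer set to 3, which lowers such ratios, so more may lie above it.

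Thbs3, which encodes a pentamer known from skeletal and cardiac tissue, lies at chr3:89215180-89226837 (plus strand, 4823 exon bases) wholly inside Mtx1, a coding gene on the opposite strand. It had 40 corneal and 153 limbal reads, a log2 ratio of 2.03 (1.52 to 2.57). The kit preserves strand but the setting used in counting is not given in the sources used here, so reads of Mtx1 may be among them. Thbs3 could not be told from Thbs1 in its ratio, with a difference of 0.24 (−0.27 to 0.76). The 3 pentamers together gave 1817 corneal and 2047 limbal reads, a log2 ratio of 0.27 (0.18 to 0.36), most of them from Thbs4.

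The make-up of the thrombospondin family was unlike in the 2 libraries. On a scale of reads per kb of exon, Thbs4 took 63.2% of the summed level of the 5 genes in the cornea and 33.8% in the limbus. The share of Thbs1 was 18.7% of the corneal and 32.8% of the limbal level, and that of Thbs2 was 17.0% and 28.3%. Thbs3 took 0.972% and 2.02%, and Comp 0.158% and 3.15%. In the cornea Thbs4 stood at 3.38 times the level of Thbs1 per kb, and in the limbus at 1.03 times. Over Comp, Thbs4 stood 399.9 times higher per kb in the cornea, where Comp had only 4 reads, and 10.7 times higher in the limbus.

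**Figure D2:**
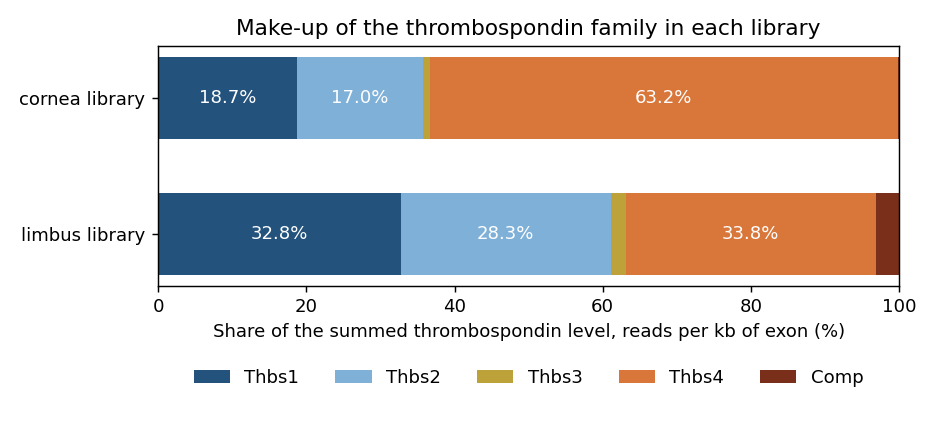
Share of each thrombospondin gene, in percent, in the summed level of the 5 genes per kb of exon, with 1 bar per library. Thbs4 fills 63.2% of the cornea bar and 33.8% of the limbus bar, and Comp is visible only in the limbus bar, at 3.15%.

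Sparc gave most of the reads of the 10 genes. Its product, also called osteonectin, is a collagen-binding glycoprotein that affects how collagen is processed and laid down, and the gene lies at chr11:55394500-55423183 (minus strand, 3788 exon bases). It had 14593 corneal and 33955 limbal reads, a log2 ratio of 1.31 (1.29 to 1.34), or 2.49-fold. Sparc made up 72.8% of the reads of the 10 genes in the cornea and 72.3% in the limbus. Without it, the other 9 genes gave 5458 corneal and 12990 limbal reads, with a log2 ratio of 1.35 (1.30 to 1.39) against 1.32 (1.30 to 1.35) for all 10. The 10 genes took 0.0768% of the cornea reads (exact 95% interval 0.0758% to 0.0779%) and 0.222% of the limbus reads (0.220% to 0.224%).

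Sparcl1 and Smoc2, the other SPARC family genes among the 10, had smaller ratios than Sparc. Sparcl1, or hevin, a relative of Sparc known from synapses and from collagen in skin, lies at chr5:104079111-104113733 (minus strand, 2937 exon bases). It had 665 corneal and 1335 limbal reads, a log2 ratio of 1.10. Its interval of 0.97 to 1.24 includes 2-fold, so whether it belongs beyond that threshold is within counting error. Per kb of exon, Sparc stood at 17.0 times the level of Sparcl1 in the cornea and 19.7 times in the limbus, or 26.3 and 30.5 times per kb of longest transcript. Smoc2 encodes a secreted calcium-binding protein of the same family that is also known as a gene of intestinal stem cells, and lies at chr17:14279506-14404790 (plus strand, 6951 exon bases). It had 859 corneal and 1356 limbal reads, a log2 ratio of 0.75 (0.63 to 0.88), which is short of 2-fold. After scaling to total reads the log2 ratio of Smoc2 was 0.96, still short of 2-fold, but its interval then included 2-fold. The ratios of these 3 genes lay apart, with Sparc above Sparcl1 by 0.21 (0.08 to 0.35) and Sparcl1 above Smoc2 by 0.35 (0.16 to 0.53) on the log2 scale.

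Osteopontin and periostin had the first and the third ratio among the 10 genes, with Comp between them. Spp1 encodes osteopontin, a phosphoprotein that binds integrins and CD44 and is made by bone cells and by activated macrophages, and lies at chr5:104435118-104441050 (plus strand, 1648 exon bases). It had 8 corneal and 439 limbal reads, a log2 ratio of 5.87 (4.88 to 7.09), or a fold of 29.5 to 137. Of all genes tested, 73 had a larger ratio with reads of 3 or fewer set to 3, so more may lie above it. The ratio of Spp1 could not be told from that of Comp, since the difference was 0.58 with an interval of −1.17 to 2.33. Postn encodes periostin, which binds collagen and tenascin C and is known from sclera, tendon and healing tissue, and lies at chr3:54361109-54391037 (plus strand, 8702 exon bases). It had 125 corneal and 1567 limbal reads, a log2 ratio of 3.74 (3.48 to 4.02). Postn stood 1.71 (1.15 to 2.28) above Thbs3 in log2 ratio and so sat apart from it. Postn stood 1.55 (0.09 to 3.01) below Comp, a narrow separation that rests on 4 corneal reads of Comp. The exact intervals of Postn and Comp overlap. Per kb of exon, Postn was 2.96 times as high as Spp1 in the cornea and 0.676 times in the limbus, and per kb of longest transcript 4.51 and 1.03 times, so which is higher in the limbus depends on the length taken.

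**Figure D3:**
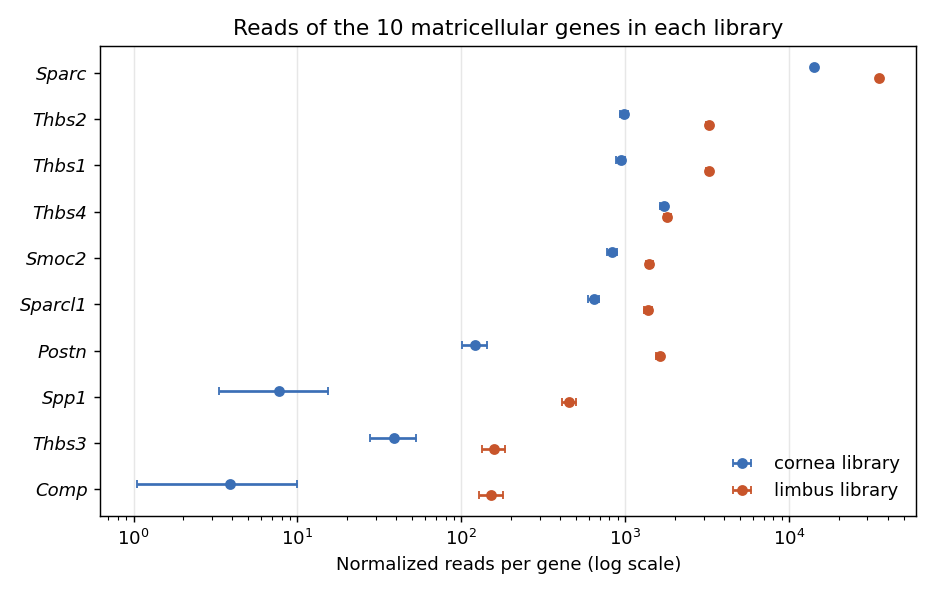
Normalized reads of each of the 10 genes in the cornea library (blue) and the limbus library (orange) on a log axis, with exact 95% Poisson intervals. Sparc lies above all others in both libraries, the points of Thbs4 nearly coincide, and Spp1 and Comp rest on 8 and 4 cornea reads.

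Levels of different genes were compared as reads per kb of exon per 1000000 reads on named genes. In the cornea Sparc stood at 147.6, followed by Thbs4 at 20.7, Sparcl1 at 8.67, Thbs1 at 6.11, Thbs2 at 5.56 and Smoc2 at 4.73. Postn at 0.550, Thbs3 at 0.318, Spp1 at 0.186 and Comp at 0.0516 formed the lower end. Of all neighbours in this order only Thbs3 and Spp1 did not differ beyond counting error by normal intervals. Spp1 and Comp differed narrowly, by a log2 difference of 1.85 (0.12 to 3.58) that rests on 8 and 4 reads. In the limbus Sparc stood at 423.2, and Thbs4 at 25.1, Thbs1 at 24.3, Sparcl1 at 21.5 and Thbs2 at 21.01 formed a close group. Within it, Thbs4 could not be told from Thbs1, nor Sparcl1 from Thbs2. Spp1 at 12.6, Smoc2 at 9.21, Postn at 8.50, Comp at 2.34 and Thbs3 at 1.498 followed. The places in the limbus depend on the length taken for a gene: with the longest transcript in place of all exon bases, 5 of the 10 genes kept their place there and 8 of 10 in the cornea. With that length Smoc2 stood in the cornea at 8.28, above Thbs2 at 6.60 and Thbs1 at 6.34.

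In addition to Thbs3, 4 of the 10 genes share ground with a gene that the annotation does not list as coding. An antisense gene overlaps Smoc2 and another overlaps Sparcl1, a long non-coding gene lies opposite Thbs1, and a gene to be experimentally tested lies on the strand of Spp1. No other gene overlaps Thbs2, Thbs4, Comp, Sparc or Postn.

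Genes of the same pathways, listed by function with earlier results of these data known, were read in the same way. Of 20 other matricellular and SPARC family genes, 18 were tested, of which 14 passed 2-fold towards the limbus and 1 towards the cornea, against 20.8% and 8.84% of all genes, and the median log2 ratio was 1.96. Of the 14, 3 were tested only through their limbal reads, and among the 15 genes with more than 3 corneal reads 11 passed. The SPARC relatives in this list, Smoc1 at 3.16 (2.82 to 3.51) and Spock2 at 1.75 (1.36 to 2.15), had log2 ratios above the 1.31 of Sparc. The intervals of Spock1, at 2.38 (1.26 to 3.69), and Fstl1, at 1.38 (1.27 to 1.49), include that value, while Spock3 had 1 corneal and 0 limbal reads and was not tested. The tenascin gene Tnc, whose product periostin binds, had 9 corneal and 834 limbal reads, a log2 ratio of 6.63 (5.70 to 7.76). Wisp2, a gene of the CCN family, had 5 and 923, a log2 ratio of 7.62 (6.40 to 9.25), above that of Spp1. Fbln1, which encodes fibulin 1, had 756 and 2747 (1.96), and Mfge8, whose product bridges integrins and phospholipids, had 1104 and 3845 (1.90). The gene past 2-fold towards the cornea was Tgfbi, the closest relative of periostin and a gene of corneal dystrophies, with 36746 corneal and 16495 limbal reads, a log2 ratio of −1.06 (−1.09 to −1.03), which was −0.85 and so short of 2-fold after scaling to total reads. Postn and Tgfbi lay on opposite sides of equality. Nov, a CCN gene, was also lower in the limbus, with 201 corneal reads and a log2 ratio of −0.79 (−1.14 to −0.44). In the same family Ctgf had 155 corneal and 1762 limbal reads, a log2 ratio of 3.60 (3.37 to 3.85), and Wisp1 had 24 and 268, a log2 ratio of 3.58 (2.97 to 4.24). Cyr61, another CCN gene, had 2448 and 2193 reads, a log2 ratio of −0.06 (−0.15 to 0.02) that was 0.14 after scaling to total reads. Because Tgfbi gave so many of the reads, the summed log2 ratio of this list was −0.23 (−0.25 to −0.21), of opposite sign to its median. Among genes of the pathway lists, cell type markers left out, that had above 3 reads in each library, those nearest to Sparc in log2 ratio were Fstl1, a SPARC relative with 933 and 2277 reads and a difference of 0.07, and Ltbp3, with a difference of 0.09. Nearest to Spp1 were Tnc, at a difference of 0.76, and the tenascin gene Tnxb, with 14 and 391 reads, at 0.97. Tnn, with 0 and 236 reads, Ltbp2, with 2 and 316, and Itga8, with 3 and 89, were left out of this order because their corneal reads are too few for a ratio.

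The other genes of the small integrin-binding ligand family to which osteopontin belongs, Ibsp, Dmp1, Dspp and Mepe, are all listed at 0. Spp1 is the only gene of its family with reads in these libraries.

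Receptors and binding partners of these proteins were spread around equality. Of 21 genes, 7 passed 2-fold towards the limbus and 2 towards the cornea, against 20.8% and 8.84% of all genes, so the cornea count is near the background, and the median log2 ratio was 0.25. Of the 7, Itga8 was tested only through its limbal reads, which leaves 6 of 20. Cd44, a receptor of osteopontin and hyaluronan, was the receptor furthest to the cornea side, with 13065 corneal and 2934 limbal reads, a log2 ratio of −2.06 (−2.12 to −2.001). Itga2, a subunit of a collagen receptor, had 308 and 83 reads, a log2 ratio of −1.80 (−2.16 to −1.44). Itga6 had 6905 and 3401 (−0.93) and Itgb1 5303 and 3903 (−0.35), both genes of integrin subunits. Calr, whose product calreticulin is bound by thrombospondin 1 at the cell surface, had 14587 and 16287 (0.25). On the limbus side, Itga5, a fibronectin receptor subunit, had 29 corneal and 271 limbal reads, a log2 ratio of 3.32 (2.76 to 3.93), and Stab1, which encodes a scavenger receptor for SPARC on macrophages and sinusoidal endothelium, had 74 and 505, a log2 ratio of 2.87 (2.51 to 3.24).

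Genes of TGF-β and its latent complex, on which thrombospondin 1 is known to act, were mostly higher in the limbus. Of 7 genes, 6 passed 2-fold in that direction, against 20.8% of all genes, and 0 in the other, and the median log2 ratio was 1.62. Ltbp2, 1 of the 6, had only 2 corneal reads. The ligand gene Tgfb3 had 76 corneal and 1212 limbal reads, a log2 ratio of 4.09 (3.76 to 4.44). Of the genes of latent TGF-β binding proteins, Ltbp4 had 1038 and 4714 reads (2.28), Ltbp3 928 and 2024 (1.22) and Ltbp1 353 and 1015 (1.62). The gene short of 2-fold was Tgfb1, with 445 and 508 reads and a log2 ratio of 0.29 (0.10 to 0.47).

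Other secreted proteins with thrombospondin type 1 repeats gave 5 of 12 genes past 2-fold towards the limbus and 0 towards the cornea, and 7 and 0 after scaling to total reads. Of those 5, 4 were tested only through their limbal reads, and among the 7 genes with more than 3 corneal reads 1 passed, Sbspon, beside a background of 20.8%. After scaling to total reads 3 of those 7 passed, with Adamtsl1 and Adamtsl4 added, beside a background of 24.0%. Both backgrounds also hold genes with 3 or fewer corneal reads, which the 7 do not, so the shares are over unlike sets. The median log2 ratio was 0.69 over those 7, and 0.85 over the 12 with reads of 3 or fewer set to 3. Those with the most reads included Spon2, with 1957 corneal and 1854 limbal reads (0.02, with an interval of −0.07 to 0.11), Adamtsl4 with 1230 and 2036 (0.82), and Adamtsl1 with 191 and 328 (0.88). Spon1, which encodes F-spondin, had 1323 and 705 reads, a log2 ratio of −0.81 (−0.95 to −0.68). Sbspon had 15 and 140, a log2 ratio of 3.32 (2.55 to 4.19).

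**Figure D4:**
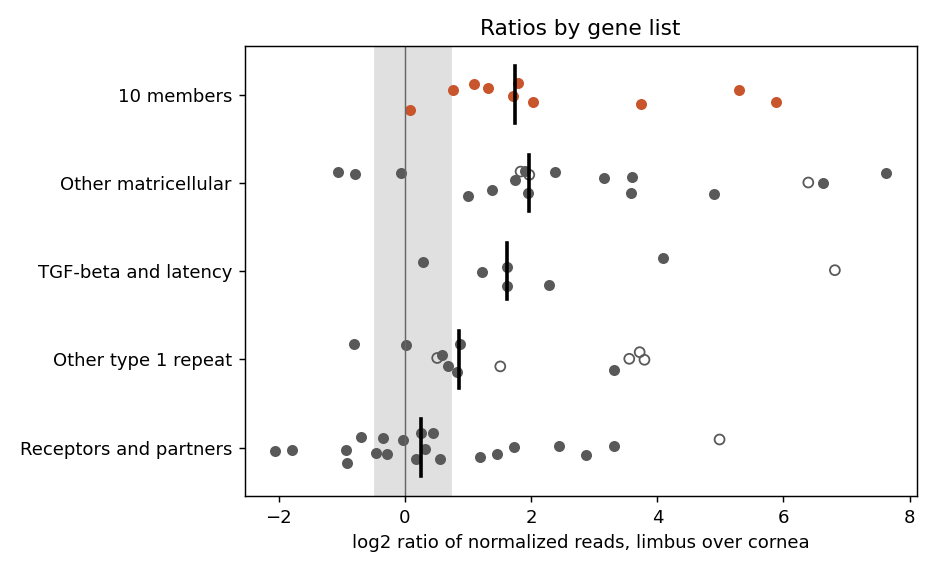
Log2 ratio of normalized reads, limbus over cornea, for the genes tested in each list, with a black bar at the median of the list. Open circles are genes with a library at 3 reads or fewer, set to 3 reads, and the grey band holds the middle quartiles of all genes tested. The medians lie at 1.75 for the 10 genes, 1.96 for other matricellular genes, 1.62 for TGF-β and its latent complex, 0.85 for type 1 repeat genes (0.69 without open circles) and 0.25 for receptors.

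Markers of several cell types moved with these ratios, and their part in them was not tested. The counts below are of markers at least 2-fold higher in the limbus, where 20.8% of all genes were, and those with 3 corneal reads or fewer were tested only through the limbus. Scleral and tendon fibroblast markers were at least 2-fold higher in 6 of 6 genes, or 4 of 4 above 3 corneal reads. They summed to 1361 corneal and 18011 limbal normalized reads, and Fmod, the most abundant of them, had 713 and 12695 reads. Comp, Postn, Thbs1 and Thbs2 were also at least 2-fold higher, whereas Thbs4, likewise known from tendon, had a log2 ratio of 0.07. Skeletal muscle markers passed 2-fold in 5 of 5 genes, with sums of 77.4 and 9975. Smooth muscle and pericyte markers passed it in 5 of 5 genes, or 4 of 4 above 3 corneal reads, with 78.4 and 1510. Vascular endothelial markers did so in 4 of 5, with 177 and 2143, but in 1 of only 2 above 3 corneal reads. Macrophage markers were at least 2-fold higher in 3 of 5 genes, with 779 and 2475, beside Spp1 at 58.6-fold, a ratio that rests on 8 corneal reads. Trabecular meshwork markers summed to 2437 and 5305, with 2 of 4 genes at least 2-fold higher, and Myoc among them had 9 and 1119 reads. Melanocyte markers were at least 2-fold higher in 5 of 5 genes (306 and 1644), Schwann cell markers in 3 of 5, or 2 of 4 above 3 corneal reads (4862 and 8052), and corneal endothelial markers in 2 of 5 (15268 and 23896). After scaling to total reads, where 24.0% of all genes passed, vascular endothelial markers passed in 5 of 5 genes, or 2 of 2 above 3 corneal reads. Macrophage markers then passed in 4 of 5, Schwann cell markers in 4 of 5, or 3 of 4 above 3 corneal reads, and corneal endothelial markers in 3 of 5. Keratocyte markers went the other way in sum, with 32492 corneal and 16929 limbal normalized reads. Of these 5 genes, 2 were at least 2-fold higher in the cornea, where 8.84% of all genes were, and 1 in the limbus. Kera had 12119 and 1423 reads, whereas Lum had 8471 and 7850, and Ptgds had 186 and 1950. Osteoblast and cartilage markers had few reads, with 1.93 and 23.8 in sum. Bglap, Bglap2 and Ibsp are listed at 0, and Sp7 and Acan had 0 corneal reads with 1 and 3 limbal reads. Col2a1, the only 1 of them tested, had 2 corneal and 19 limbal reads. It passed 2-fold towards the limbus but was tested only through its limbal reads. Spp1 had 439 limbus reads and Comp 147.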

How the data were processed

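Limbal and corneal RNA was compared in 1 table. Per the study's methods, libraries were made with a stranded total RNA kit, and CLC Genomics Workbench 20 served for trimming, mapping to GRCm38 (mm10) and normalization (trimmed mean of M-values). Each row deposited by the authors gives the mean over 2 libraries of a normalized signal (reads over the size factor of their library), and a fold change between tissues on the log2 scale, its error and p-values. These last columns hold the authors' own comparison. The log2 columns served only to choose among read pairs, their values are not reported, and the p-values were not used.

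Of 40904 rows, 23420 name a gene and 17484 do not and were left out, and 5978 named genes are listed at 0. For the other 17442 genes the mean is a sum of whole reads, with 109 cornea reads worth as much as 102 limbus reads (size factors 1.0337 and 0.9674). In 6143 genes only 1 pair of read numbers fits the mean, and in 11299 more than 1 does. Among these, the pair nearest to the one implied by the log2 columns was taken, using a shrinkage model with a prior SD of 1.4365. For 17437 genes (99.97%) it lay within 0.5 cornea reads. For the 10 genes reported, it lay within 0.0318 cornea reads and the next pair was at least 5.27 away. Read numbers are thus derived and not a count table. On simulated data for limbus against cornea, made with the same model, prior SD and size factors, 17073 of 17073 pairs were found. Because the model is shared, this shows only that its steps can be undone. It cannot show that the deposited values follow that model. Of genes made to change 2-fold, which is the threshold itself, 32 of 63 came out at least 2-fold in the right direction. All 67 of 67 made to change 4-fold did so, and 70 of 70 made to change 8-fold.

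Ratios are of reads over size factors, with exact Clopper-Pearson intervals at the 95% level on the limbal share of reads. Read numbers of 3 or fewer were raised to 3, and genes with more than 3 reads in a library were tested. Differences between ratios and between levels used normal intervals on the log scale. PCR copies were not marked by molecular identifiers, so reads may share a molecule and intervals cover counting error only. A ratio of at least 2 was called. No test across replicates could be made, since values per numbered sample are not in the table used here, and 0 columns of per-sample values were left unmatched. The members and lists were chosen with earlier results of these data known. Of each list the text names the 4 genes with the most reads and the 2 with the largest ratio past 2-fold in each direction among those above 3 reads in each library, and for Sparc and Spp1 the 2 of those genes nearest in log2 ratio, cell type markers left out. Smoc1, Spock1, Spock2, Spock3, Nov, Ctgf, Wisp1, Tnn, Itga8, Ltbp2, Tgfb1, Fmod, Myoc, Kera, Lum and Ptgds were named after their values were seen. Emr1 and Chi3l1 were read for Adgre1 and Chil1. GENCODE (GRCm38) gave positions and exon lengths. The accession column of the table was not used, because it goes with the named gene in 2 of 18556 rows. Alternatives were scaling to total reads, trimmed mean of M-values, a pseudocount of 1, thresholds of 1.5-fold and 4-fold, a minimum mean of 10, and transcript length. Python 3.11.15, numpy 2.4.6, scipy 1.17.1, pandas 2.3.3 and matplotlib 3.10.9 were used.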

Additional observations from a re-analysis of the deposited data

How the results depend on the processing

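The 8 genes at least 2-fold higher in the limbus remained 8 in number after scaling to total reads (24.0% of all genes), after the trimmed mean of M-values (20.9%), with a pseudocount of 1 normalized read (22.1%) and with a minimum mean of 10 normalized reads (17.96%). At 4-fold, 4 genes passed against 11.4% of all genes tested, and at 1.5-fold 9 passed against 27.3%. Without the 10 genes with the most reads in each library, the share of reads of the 10 genes was 0.09315% in the cornea and 0.2557% in the limbus, since the total is smaller. With the longest transcript as the length, 5 genes kept their place in the limbus order. In alternatives added after the data were seen, that length gave Thbs4 61.3% of the corneal and 31.97% of the limbal thrombospondin level, and turned the order of Thbs2 and Thbs1 in the cornea (1.04 times) and of Postn and Spp1 in the limbus (1.03 times). Only for Thbs4 did the interval come to lie above equality where it had included it, at 0.28 after scaling to total reads, and no ratio of the 10 reversed under the scalings or the pseudocount. No paired analysis was possible because the table carries no value for a numbered sample, and leaving out replicates was not run for that reason. Depth limits Comp and Spp1 most, whose ratios rest on 4 and 8 cornea reads.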
